A study of Mus musculus with 32 samples.

Results

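Mouse BP14A cells at day 2 of germ cell induction were compared with parental cells that had received doxycycline for the same time. The 4 arrays were chosen by their titles, 2 of BP14A cells and 2 of parental cells, out of 32 in the series, and every annotated gene was included: 18193 genes were measured and 15497 tested. Both groups were male cells of mixed C57BL/6 and 129 background that carried 2 fluorescent reporters, Blimp1-mVenus and stella-ECFP, and the doxycycline-dependent activator rtTA at Rosa26. BP14A cells carried in addition piggyBac vectors in which a tetO array with a minimal CMV promoter drives Avi-tagged Blimp1 (gene Prdm1), FLAG-tagged Prdm14 or V5-tagged Tfap2c, each followed by IRES-beta geo. Per the labels' protocols, embryonic stem cells (ESCs) kept under 2i+LIF were first turned into epiblast-like cells (EpiLCs) for 36 h, then aggregated at 2000 cells per well in GK15 medium with doxycycline at 1.5 μg/ml. The protocol lists the cytokines (BMP4, BMP8A, SCF, LIF and EGF) for another group of the series only. Amplified cDNA from about 20000 cells was hybridised. The labels call the control a clone and name no sort for either group. BP14A cells differ from it in having been transfected as well as in the factors, and these cannot be told apart.

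Sperm and eggs both descend from primordial germ cells (PGCs). In the mouse embryo these arise from a few cells of the postimplantation epiblast under BMP and WNT signals, and the transcription factors Blimp1, Prdm14 and AP-2γ (gene Tfap2c) are each needed for them. Blimp1 is known for repressing the somatic programme of the neighbouring mesoderm, and Prdm14 for restoring expression of pluripotency genes and for repressing de novo DNA methyltransferases. Epiblast-like cells left in aggregates without instruction differentiate.

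Values are log2 expression after quantile normalization, and each pair of values gives replicates 1 and 2 in that order. Changes are the BP14A mean minus the parental mean with the standard error (SE) and the Benjamini-Hochberg adjusted p of limma, fitted on all 32 arrays. A gene was called higher or lower where the adjusted p was under 0.05 and the levels differed 2-fold or more; "rose" and "fell" are kept for such genes. Levels under 4.05 were treated as dim, and folds against a dim group are imprecise. Of 15497 tested genes, 1028 (6.63%) were higher in BP14A cells and 1123 (7.25%) lower, and the median difference over all of them was 0.05. A change of at least 4-fold was seen in 355 of the higher and 461 of the lower genes, and one of at least 16-fold in 56 and 88. The group with the lower level was dim in 188 of the higher and 252 of the lower genes. The arrays of the groups overlapped in 1 called gene, C1s1. The arrays are described as biological duplicates, no label names separate cultures, and p-values measure only the spread between these arrays, which may be technical. In bulk samples, fewer cells that express a gene and less RNA per cell cannot be told apart.

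Replicate arrays correlated at r = 0.9767 in BP14A cells and 0.9842 in parental +dox cells across tested genes, against 0.9107 to 0.925 between arrays of the different groups. The 5′ minus 3′ difference of the beta-actin control probe sets, a measure of RNA integrity and cDNA length, was -3.38 and -3.45 in BP14A arrays and -2.76 and -2.85 in parental arrays. That of Gapdh was -1.03 and -0.58 against -0.33 and -0.35. Both differences were lower in BP14A cells, and their part in the results was not tested. Cells labelled as a parental ESC clone did not have the level of Klf4, a naive state factor, seen in ESCs: it was 3.73 and 4.11, against 9.95 ± 0.22 (SD, n = 2) in BP14A ESCs.

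**Figure D1:**
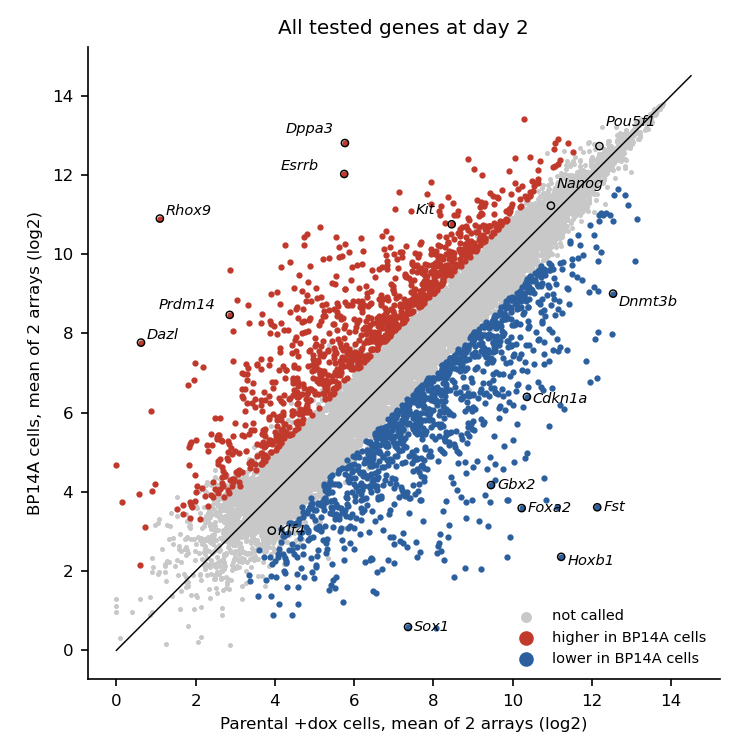
Mean log2 expression in BP14A cells (vertical axis) against parental +dox cells (horizontal axis) for all 15497 tested genes, each the mean of 2 arrays. Red points are the 1028 genes called higher in BP14A cells, blue points the 1123 called lower and grey points the rest; the line marks equal levels, Nanog and Pou5f1 lie near it, and Rhox9 and Hoxb1 lie farthest from it on either side.

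The 3 genes supplied as transgenes were read first. Prdm1 stood at 10.25 and 10.13 in BP14A cells and 5.49 and 5.77 in parental +dox cells, a change of 4.56 (SE 0.33, adjusted p = 3.35e-09). Prdm14 was at 8.61 and 8.32 against 2.87 and 2.85, where both parental arrays were dim (change 5.61, SE 0.25, adjusted p = 1.04e-11). The brightest of 3 Tfap2c probe sets gave 11.67 and 11.44 against 7.25 and 7.04 (change 4.41, SE 0.29, adjusted p = 1.34e-09), and the other two gave 9.93 and 9.72 against 5.89 and 6.02, and 10.10 and 10.03 against 5.38 and 5.27. No BP14A array overlapped a parental array in any of these 5 probe sets. The stretch of each transcript in the vectors is not given in the sources used here, and these probe sets may read transgene, endogenous transcript or both. Among partner genes, Cbfa2t2, the corepressor that binds Prdm14, rose from 8.13 and 8.32 to 10.05 and 9.80 (change 1.69, adjusted p = 1.03e-06). Prmt5, an arginine methyltransferase that partners Blimp1, was at 10.51 and 10.69 against 10.40 and 10.59 and was not called (change 0.11, adjusted p = 0.811).

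Early germ cell genes were higher in BP14A cells. Of 16 tested of 19 listed, 12 rose and 1, Lin28a, fell, with a median difference of 2.02 against 0.05 over all genes. Dppa3 (stella), a chromatin-binding protein that protects maternal methylation marks in the zygote and marks PGCs, was at 12.91 and 12.70 in BP14A arrays and 5.43 and 6.10 in parental arrays (change 7.03, SE 0.25, adjusted p = 1.49e-12). The BP14A arrays exceeded the EpiLC level of 8.31 ± 0.14 (SD, n = 2) and the parental arrays lay below it. Rhox9, an X-linked homeobox gene of the reproductive tract and germ cells, had the largest rise of all genes, from 0.80 and 1.39 to 11.03 and 10.77 (change 9.80, SE 0.43, adjusted p = 7.2e-12). Its neighbour Rhox6 was at 10.90 and 10.44 against 4.91 and 5.39 (change 5.52, adjusted p = 3.11e-09), and Rhox5 at 11.36 and 11.19 against 7.57 and 8.32. For Rhox5 the EpiLCs were higher than either group, at 12.68 ± 0.11.

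Receptors and surface proteins of germ cells followed. Kit, the receptor for stem cell factor that PGCs need to survive and migrate, was at 10.82 and 10.68 against 8.30 and 8.62 (change 2.29, SE 0.26, adjusted p = 1.21e-06). All 4 arrays lay above the EpiLC level of 6.58 ± 0.13. The call rests on the brighter of 2 Kit probe sets, and the mean of both was not called (adjusted p = 0.102). Ifitm3 and Ifitm1, interferon-inducible membrane proteins long used as PGC markers, rose by 1.76 and 1.62 from levels already above 11 in each parental array. Itgb3, an integrin subunit, was at 7.34 and 7.72 against 4.09 and 4.17. Alpl, the tissue-nonspecific alkaline phosphatase by which PGCs were first stained, rose less, with 9.21 and 9.73 against 8.03 and 8.20 (change 1.35, SE 0.33, adjusted p = 0.00504). Dnd1, an RNA-binding protein that germ cells need to survive, was at 8.35 and 8.42 against 7.03 and 6.43 (change 1.66, adjusted p = 0.00015). Ifitm2, Elovl6 and Sall4 differed by less than 2-fold. Lin28a, a blocker of let-7 maturation, was at 8.79 and 9.45 against 10.22 and 10.71 (change -1.35, adjusted p = 0.0283). Its call was lost on leaving out BP14A replicate 1 (adjusted p = 0.234), parental replicate 1 (0.0509) or parental replicate 2 (0.191), and with the mean of its probe sets.

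The promoters of 3 risen germ cell genes are shown because they hold the palindrome that AP-2 factors bind, GCCNNNGGC, or AGNGAAAG, a core of the Blimp1 element, each searched on both strands. They are the 300 bases from 250 before to 50 after the first listed start of each gene in RefSeq (GRCm38.p6), 5′ to 3′ on the gene's strand, with matches in capitals.
Kit, chr5:75574737-75575036, plus strand: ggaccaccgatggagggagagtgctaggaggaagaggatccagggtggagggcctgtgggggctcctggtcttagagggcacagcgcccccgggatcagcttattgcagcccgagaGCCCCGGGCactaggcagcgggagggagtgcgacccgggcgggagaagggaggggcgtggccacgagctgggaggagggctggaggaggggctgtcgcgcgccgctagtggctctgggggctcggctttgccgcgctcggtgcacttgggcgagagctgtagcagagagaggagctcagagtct
Alpl, chr4:137796335-137796634, minus strand: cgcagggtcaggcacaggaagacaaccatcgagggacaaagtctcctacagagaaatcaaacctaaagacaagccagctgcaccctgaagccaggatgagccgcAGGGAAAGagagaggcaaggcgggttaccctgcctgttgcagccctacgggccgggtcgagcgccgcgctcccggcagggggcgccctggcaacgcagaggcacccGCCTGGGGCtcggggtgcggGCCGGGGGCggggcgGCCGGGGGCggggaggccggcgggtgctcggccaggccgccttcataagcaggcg
Rec114, chr9:58741510-58741809, minus strand: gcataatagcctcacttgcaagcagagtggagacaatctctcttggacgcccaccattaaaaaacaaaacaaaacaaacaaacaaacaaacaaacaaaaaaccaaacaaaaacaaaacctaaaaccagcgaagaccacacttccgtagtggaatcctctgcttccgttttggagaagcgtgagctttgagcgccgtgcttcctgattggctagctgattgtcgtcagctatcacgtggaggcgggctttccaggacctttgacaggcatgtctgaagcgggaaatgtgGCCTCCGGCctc
Counting from the start site as base 1, with no base 0, the Kit match lay at -134 to -126. Alpl, with the smallest rise of the early germ cell genes, held 3 AP-2 matches between -40 and 4 and 1 Blimp1 match, AGGGAAAG, at -146 to -139. Rec114, a gene of meiotic recombination with a change of 5.78, held 1 AP-2 match at 39 to 47, after its start. The same search found neither motif in the promoters of Prdm1, Hesx1, Rhox5, Sox2, Ifitm3, Cbfa2t2, Ifitm1, Dazl, Esrrb, Tcl1 and Mageb16. No promoter was listed for Rhox9, Dppa3, Prdm14, Rhox6, Tfap2c, Itgb3, Dnd1, Morc1, Calcoco2 and Dppa2. The 3 promoters shown were thus exceptions among the risen genes searched, not typical of them. Promoters were listed for 12388 of the tested genes. GCCNNNGGC stood in 23.8% of these, in 24.3% of the 804 listed for higher genes, in 28.5% of the 876 listed for lower genes and in 16.5% of all 27025 listed promoters. AGNGAAAG stood in 7.67% of the promoters of tested genes, 8.08% of those of higher genes, 9.25% of those of lower genes and 8.5% of all promoters. GGTCTCTAA, the element that Prdm14 binds, stood in 0.234%, 0.249% and 0.114% of those of tested, higher and lower genes and in 0.259% of all. The shares in higher genes were thus near those of all tested genes, and a match describes letters in this window, not a bound site.

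Genes of later germ cells and meiosis were the list with the second largest share of rises. Of 18 tested of 20 listed, 12 rose and 0 fell, with a median difference of 2.68. Dazl, an RNA-binding protein that licenses germ cells to form gametes, was at 8.74 and 6.80 in BP14A arrays and 1.12 and 0.12 in parental arrays, both of them dim (change 7.15, SE 0.55, adjusted p = 1e-08). The 2 BP14A arrays differed by nearly 2 log2 units, and both lay above every parental array. These values are of the brighter of 2 Dazl probe sets, whose differences were 7.15 and 0.45. Their mean was also called. Hormad1, a protein of the meiotic chromosome axis, was at 7.81 and 5.84 against 1.94 and 1.96 (change 4.88, SE 0.41, adjusted p = 2.49e-08). Tdrd12 and Mael, which act in transposon silencing by piRNAs, rose by 4.83 and 3.55. Ddx4, the germ cell RNA helicase Vasa, was at 9.01 and 8.56 against 5.66 and 5.89 (change 3.01, adjusted p = 2.61e-09). Sycp3, a synaptonemal complex protein, was at 8.01 and 6.30 against 4.33 and 4.65. Stra8, the retinoic acid target that marks entry into meiosis, was at 5.25 and 5.03 against 4.55 and 4.87 and was not called (change 0.43, adjusted p = 0.469).

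Several of these genes were already high in EpiLCs, the stage before aggregation. EpiLCs had 7.37 ± 0.14 of Dazl, 8.18 ± 0.27 of Hormad1, 10.08 ± 0.39 of Tdrd12 and 9.38 ± 0.12 of Mael, so the parental +dox means lay at least 6 log2 units under EpiLCs in these 4 genes and the BP14A means were within 1 log2 unit of EpiLCs or below. Morc1, an ATPase that represses transposons in male germ cells, gave 10.05 and 9.15 against 2.43 and 3.31, with EpiLCs at 8.95 ± 0.06 (change 6.73, SE 0.29, adjusted p = 7.2e-12). Rec114 was at 9.55 and 8.12 against 2.77 and 3.34, with EpiLCs at 8.96 ± 0.14. In the list as a whole, BP14A replicate 1 lay above replicate 2 in 16 of 18 genes, against 8349 of 15497 among all tested genes. Parental replicate 1 lay above replicate 2 in 7 of the 18. BP14A replicate 1 also had the lower Gapdh 5′ minus 3′ difference given above, whose part in this was not tested. The beta-actin difference was not lower in replicate 1, at -3.38 against -3.45 in replicate 2. The parental mean was dim in 9 of the 18 genes and the BP14A mean in 1.

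**Figure D2:**
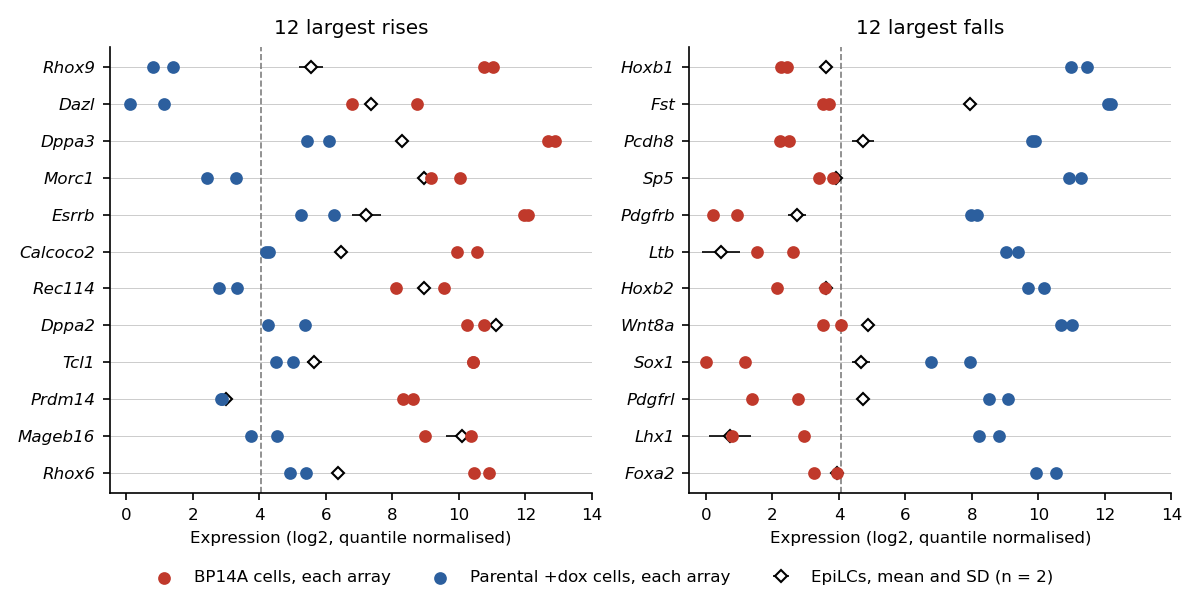
Log2 expression of the 12 genes with the largest rise (left) and the 12 with the largest fall (right) in each BP14A array (red) and each parental +dox array (blue), with the EpiLC mean and SD of 2 arrays (diamonds) and the dim level of 4.05 (dashed line). The 24 genes were chosen among those whose BP14A and parental arrays do not overlap. The diamonds of Dazl, Morc1, Rec114, Dppa2 and Mageb16 lie with the BP14A arrays.

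The largest differences also took in genes of other kinds. Calcoco2, an autophagy receptor, was at 9.95 and 10.53 in BP14A arrays against 4.20 and 4.28 in parental arrays (change 5.997, SE 0.55, adjusted p = 9.59e-08). Mageb16, an X-linked member of the MAGE family, was at 10.36 and 8.98 against 3.75 and 4.53 (change 5.52, adjusted p = 1.38e-09). Pcdh8, a protocadherin of the streak and paraxial mesoderm, was at 2.49 and 2.23 against 9.82 and 9.90 (change -7.50, SE 0.71, adjusted p = 1.37e-07). Pdgfrb, a receptor for platelet-derived growth factor, was at 0.21 and 0.93 against 7.97 and 8.16, and the related Pdgfrl at 1.38 and 2.78 against 9.07 and 8.52. Ltb (lymphotoxin beta) was at 1.52 and 2.61 against 9.01 and 9.39. In the last 4 genes both BP14A arrays were dim and both parental arrays far above dim.

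Naive pluripotency genes, which ESCs express and the postimplantation epiblast has switched off, were mostly higher in BP14A cells. Of 17 tested of 18 listed, 11 rose, 1 fell and 5 were not called, with a median difference of 3.22. Esrrb, an orphan nuclear receptor that sustains self-renewal, was at 11.97 and 12.07 against 5.25 and 6.24 (change 6.27, SE 0.53, adjusted p = 3.12e-08). Both BP14A arrays also exceeded the EpiLC level of 7.22 ± 0.44. The 3 Esrrb probe sets had differences from 0.30 to 6.27, and their mean was also called. Tcl1, an activator of Akt, gave 10.42 and 10.43 against 4.49 and 5.002 (change 5.68, SE 0.23, adjusted p = 3.79e-12). Nr5a2, another nuclear receptor, gave 9.90 and 9.72 against 4.18 and 4.60, and Nr0b1 gave 10.46 and 10.01 against 4.12 and 5.36. Klf2 and Tfcp2l1, transcription factors of the same network, rose by 3.69 and 3.01, the latter only with the brightest of its 3 probe sets. Zfp42 (Rex1) rose by 4.17.

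Klf4 was dim in BP14A cells, at 2.86 and 3.18 against 3.73 and 4.11 (change -0.90, SE 0.71, adjusted p = 0.426), and was not called. Klf5 differed by 0.87 and Tbx3 by -0.22. Gbx2, a homeobox gene that also marks the posterior epiblast, fell from 9.71 and 9.19 to 4.29 and 4.05 (change -5.28, SE 0.33, adjusted p = 6.86e-10). The BP14A arrays lay below the EpiLC level of 6.96 ± 0.15 and the parental arrays above it.

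Core pluripotency factors differed less. Of 12 tested genes, 5 rose and 2 fell. Sox2 was at 12.48 and 12.39 against 10.33 and 9.81 (change 2.37, SE 0.20, adjusted p = 2.3e-08). Pou5f1 (Oct4), expressed in PGCs as in the epiblast, was at 12.76 and 12.68 against 12.04 and 12.34, under 2-fold (change 0.53, adjusted p = 0.00812). Nanog, a homeobox factor, stood at 11.19 and 11.25 against 10.82 and 11.11 and did not pass the test (change 0.26, SE 0.45, adjusted p = 0.76), while EpiLCs were at 6.81 ± 0.94, far below all 4 arrays. Dppa2 and Dppa4, partners that keep developmental genes open, rose by 5.69 (adjusted p = 1.72e-11) and 3.88 (adjusted p = 3.31e-11), to about the EpiLC levels of 11.11 ± 0.04 and 11.84 ± 0.03. Utf1 and Gdf3, genes of pluripotent cells, rose by 3.52 and 4.10. Tdgf1 (Cripto), the coreceptor of NODAL, fell with Lin28a, at 10.41 and 11.24 against 12.41 and 12.66. The count of 2 falls was 0 without BP14A replicate 1 or parental replicate 2 and 1 without parental replicate 1.

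Genes of the primed epiblast were lower in BP14A cells or not called. Of 17 tested, 0 rose and 10 fell, with a median difference of -1.22. Pou3f1 (Oct6), a POU factor of the late epiblast, was at 6.73 and 6.38 against 9.96 and 10.22 (change -3.53, SE 0.39, adjusted p = 9.12e-07). Fgf5, the growth factor by which this state is recognised, was at 7.95 and 7.46 against 10.13 and 10.56 (change -2.64, adjusted p = 5.94e-05), with EpiLCs at 9.93 ± 0.24. Sox3 and Sox4 fell, with differences of -3.75 and -3.60. Otx2, the homeobox factor that opposes germ cell fate in EpiLCs, was at 7.43 and 6.04 against 5.72 and 6.36, where the arrays of the groups overlapped (change 0.70, SE 0.39, adjusted p = 0.232). All 4 arrays lay below its EpiLC level of 9.08 ± 0.19. Without BP14A replicate 2, 1 member was called higher.

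The genes of DNA methylation were split. Of 14 tested genes, 3 rose and 2 fell. Dnmt3b, a de novo methyltransferase that is abundant in the epiblast, was at 8.80 and 9.20 against 12.46 and 12.61 (change -3.53, SE 0.61, adjusted p = 0.000191). Dnmt3a was at 8.37 and 8.06 against 9.12 and 9.04, a difference under 2-fold (change -0.86, adjusted p = 0.0271), and both groups lay far below its EpiLC level of 11.81 ± 0.11. Dnmt3l, their cofactor without catalytic activity, was higher, at 8.54 and 8.13 against 4.60 and 5.11 (change 3.48, SE 0.26, adjusted p = 6.44e-09), and lay in both groups below EpiLCs at 11.16 ± 0.14. Uhrf1, which brings Dnmt1 to newly replicated DNA, was at 7.79 and 9.20 against 10.23 and 9.55, with the BP14A arrays over 1 log2 unit apart (change -1.39, SE 0.69, adjusted p = 0.172). Dnmt1 differed by 0.18. Tet1, which oxidises 5-methylcytosine, rose by 1.96 with its brightest probe set, and Gadd45a, a stress protein linked to demethylation, by 1.93. Zfp57, which guards methylation at imprints, fell by 1.01, a call lost without BP14A replicate 2.

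Chromatin genes of H3K9 methylation and Polycomb held 5 rises and 0 falls among 17 tested. Jarid2, which guides the Polycomb complex PRC2, was at 11.41 and 11.41 against 9.68 and 9.56 (change 1.79, adjusted p = 2.05e-07), and Kdm3a, an H3K9 demethylase, at 10.87 and 10.27 against 9.29 and 8.96. Cbx7, Suz12 and Max rose by 1.30, 1.19 and 1.08. Averaging the probe sets of each gene gave 3 rises in place of 5 and ended the call of Cbx7. The H3K9 methyltransferase genes Ehmt1 (GLP) and Ehmt2 (G9a) did not pass the test, with differences of -0.39 (adjusted p = 0.284) and 0.39 (adjusted p = 0.146).

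Genes of the primitive streak and nascent mesoderm, the tissue that forms beside PGCs in the embryo, had the lowest median difference of the 30 lists. Of 26 tested of 27 listed, 16 fell and 0 rose, with a median difference of -3.004. Sp5, a direct WNT target, was at 3.82 and 3.41 in BP14A arrays and 10.93 and 11.29 in parental arrays (change -7.50, SE 0.48, adjusted p = 8.09e-10). Fst (follistatin), which binds activin, was at 3.53 and 3.69 against 12.08 and 12.18 (change -8.52, SE 0.41, adjusted p = 2.05e-11). Lhx1, a homeobox gene of the streak and node, was at 0.79 and 2.94 against 8.21 and 8.82 (change -6.65, adjusted p = 4.04e-07). Eomes, a T-box gene of the anterior streak, was at 6.84 and 7.02 against 9.38 and 10.51 (change -3.02, adjusted p = 1.31e-06). Mixl1, Gsc, Evx1, Fgf8 and Nkx1-2 fell, with differences of -5.07 to -5.69.

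EpiLC levels were 3.90 ± 0.03 for Sp5, 0.73 ± 0.63 for Lhx1, 4.08 ± 0.08 for Evx1 and 2.69 ± 0.17 for Gsc, close to the BP14A arrays and far from the parental ones. Fst differed from this, since EpiLCs stood at 7.95 ± 0.17, between the groups. Mesp1, a factor of cardiac mesoderm, was at 6.10 and 5.56 against 5.71 and 6.01 and was not called, nor were Tbx6, Msgn1, Kdr, Pdgfra and Foxf1. The BP14A mean was dim for 15 of the 26 genes and the parental mean for 5. The list summed to 98.6 and 103.2 log2 units in the BP14A arrays and 179.7 and 180.7 in the parental arrays.

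Among Hox genes, those of the anterior end of the clusters held the largest fall of all genes. Hoxb1, which marks the posterior streak and later the hindbrain, was at 2.45 and 2.27 against 11.46 and 10.99 (change -8.86, SE 0.46, adjusted p = 4.66e-11), with EpiLCs at 3.62 ± 0.12. Hoxb2 was at 3.57 and 2.14 against 10.17 and 9.67 (change -7.06, adjusted p = 2.62e-08) and Hoxa2 at 1.99 and 2.74 against 8.09 and 7.09 (change -5.22, adjusted p = 4.47e-06). Hoxd1 fell by 1.56, Hoxb3 fell as well, at 2.17 and 1.38 against 3.94 and 3.61, and the other 17 of 22 tested, Hoxa5, Hoxb6 and Hoxc8 among them, were not called. The count of 5 falls was 3 without BP14A replicate 1 or parental replicate 1, while 1 member was called higher without either parental array. The falls were also 3 with the dim filter at the 60th percentile. Of the Cdx genes that act upstream of Hox genes, Cdx1 was at 3.75 and 3.83 against 9.22 and 8.70 (change -5.17, SE 0.26, adjusted p = 4.39e-11), and Cdx2 at 2.22 and 0.78 against 7.56 and 5.39 (change -4.98, adjusted p = 7.9e-05). Cdx4 was dim in all 4 arrays, at 1.92 and 2.35 against 3.24 and 1.74.

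Among 14 tested targets and feedback genes of WNT signalling, 6 fell and 0 rose. Axin2, the scaffold that feeds back on the pathway, was at 5.45 and 5.82 against 8.85 and 8.87 (change -3.22, SE 0.51, adjusted p = 7.51e-05), and Dkk1, a secreted inhibitor, at 4.43 and 3.18 against 10.05 and 9.67 (change -6.06, adjusted p = 1.27e-09). The ligand gene Wnt8a was at 3.51 and 4.07 against 11.02 and 10.68 (change -7.05, SE 0.27, adjusted p = 2.12e-12), and Wnt3a at 2.17 and 2.46 against 6.55 and 6.37. Wnt3, the ligand that starts the streak, was at 3.48 and 3.82 against 3.22 and 4.62 and was not called. Notum, Znrf3, Rnf43, Lef1 and Myc were not called; Myc stood at 6.05 and 6.44 against 7.17 and 7.33 (change -1.01, SE 0.46, adjusted p = 0.131).

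Targets of BMP, a ligand that the protocol lists for the cytokine group, were split. Id1, a direct target, was at 6.67 and 6.83 against 9.32 and 9.16 (change -2.49, SE 0.19, adjusted p = 7.55e-09), the BP14A arrays being at the EpiLC level of 6.74 ± 0.17. Msx1 fell by 1.98. Id3 fell by 1.17, a call lost on leaving out any 1 of the 4 arrays. Gata2, a zinc-finger factor, rose from 3.37 and 3.75 to 6.75 and 7.67 (change 3.65, SE 0.37, adjusted p = 3.74e-07) and Id4 from 3.70 and 5.17 to 6.98 and 8.03. The 3 Id4 probe sets had differences from 0.30 to 3.15, and their mean was also called. In all, 2 of 13 tested members rose and 3 fell.

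Of 15 FGF and ERK response genes, 4 rose, with Ier3 at 8.50 and 7.97 against 5.30 and 5.64 and Dusp4 at 11.54 and 11.40 against 9.88 and 9.13, and 3 fell, with Egr1, an immediate early gene, at 6.52 and 6.79 against 10.82 and 10.59 (change -4.05, SE 0.29, adjusted p = 3.52e-09). Without BP14A replicate 1 the 4 rises were 2, and without BP14A replicate 2 the 3 falls were 5. Of 13 LIF and STAT3 genes, 3 rose (1 with the mean of all probe sets) and 3 fell: the receptor gene Lifr rose from 7.22 and 7.18 to 10.26 and 9.85, and the feedback inhibitor Socs3 fell from 6.87 and 7.04 to 4.65 and 4.93. Of 11 NODAL pathway genes, 3 fell and 0 rose, but without BP14A replicate 1 or parental replicate 2 the count was 1. Nodal itself had replicates over 1 log2 unit apart in both groups, at 5.22 and 7.49 against 7.25 and 8.40, and its inhibitors Lefty1 and Lefty2 differed by 0.32 and -0.16.

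Retinoic acid genes had 7 falls and 1 rise among 11 tested. Dhrs3, a reductase that lowers retinaldehyde, was at 2.96 and 2.25 against 6.86 and 7.79 (change -4.72, SE 0.49, adjusted p = 4.81e-07). The binding protein genes Crabp1 and Crabp2 fell, with differences of -2.59 and -3.63, and Cyp26a1, which degrades retinoic acid, was at 5.24 and 5.42 against 7.78 and 8.31. Aldh1a2, the main enzyme of its synthesis in the embryo, was at 6.65 and 6.30 against 5.71 and 4.78 (change 1.23, adjusted p = 0.0174), a rise not called without BP14A replicate 1 or parental replicate 2.

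**Figure D3:**
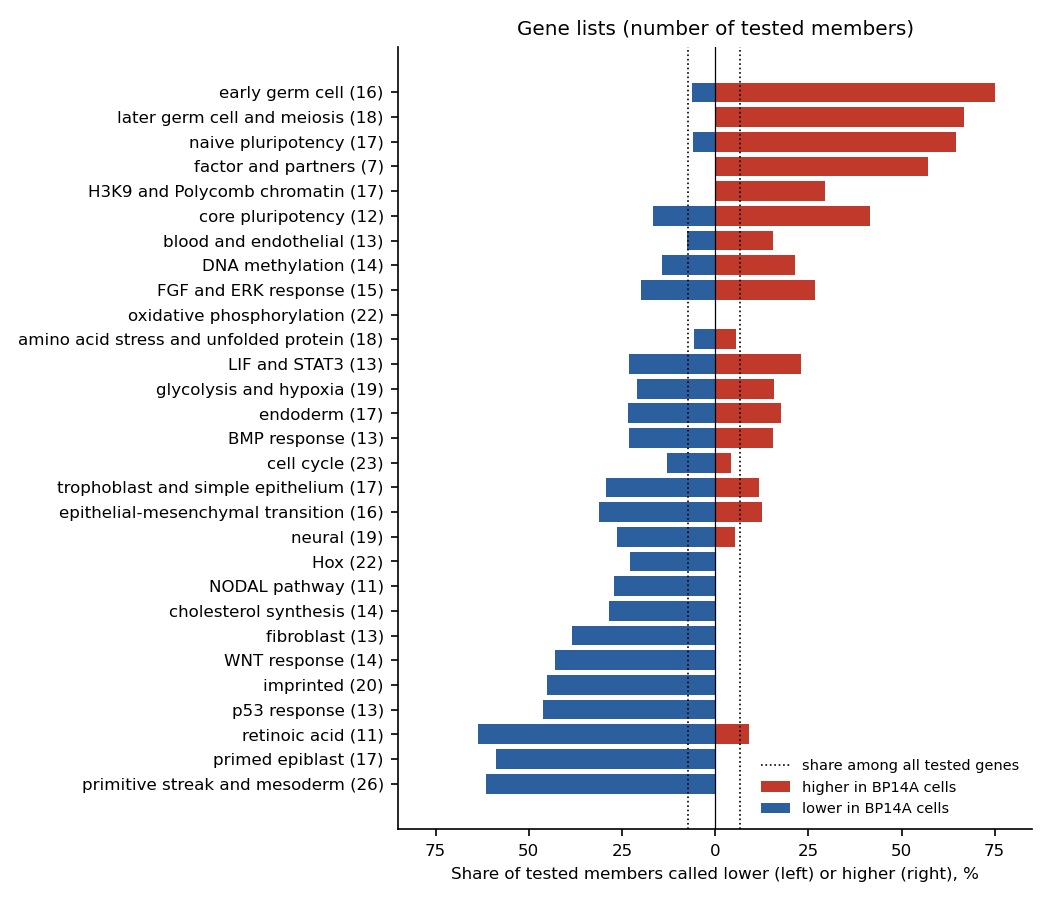
Share of the tested members of each of 29 gene lists that was called higher (red, right) or lower (blue, left) in BP14A cells, with the number of tested members in parentheses and the shares among all tested genes, 6.63% and 7.25%, as dotted lines. Early germ cell, later germ cell and naive pluripotency genes have the longest red bars, and retinoic acid, streak and primed epiblast genes the longest blue bars.

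Markers of other lineages were read in both groups. Of 19 neural genes, 5 fell and 1, Tubb3, rose. Sox1, the first marker of neural plate, was listed at 0 in BP14A replicate 1 and at 1.18 in replicate 2. The parental arrays were at 7.95 and 6.76 (change -6.77, adjusted p = 2.65e-08) and EpiLCs at 4.66 ± 0.28. The 2 Sox1 probe sets had differences of -6.77 and -0.45, and their mean was also called. Sox11 was at 5.38 and 5.77 against 9.22 and 8.72, and Nes, an intermediate filament, at 3.91 and 6.42 against 9.76 and 9.82, though the mean of the 3 Nes probe sets was not called. Pax6, a later neural marker, was at 4.66 and 4.87 against 4.21 and 3.96 and was not called (change 0.67, adjusted p = 0.216). Tubb3, a neuronal tubulin, was at 9.64 and 9.85 against 7.49 and 8.07, a call lost without BP14A replicate 2 or parental replicate 1. The summed level of the list was 92.5 and 96.7 in BP14A arrays and 119.2 and 115.2 in parental arrays.

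Endoderm genes were split. Of 17 tested, 4 fell and 3 rose, the 3 being 1 without parental replicate 1. Foxa2, a forkhead factor of definitive endoderm and node, was at 3.93 and 3.25 against 9.93 and 10.52 (change -6.64, SE 0.34, adjusted p = 4.66e-11), and its relative Foxa1 at 2.41 and 2.16 against 7.03 and 6.68 (change -4.57, adjusted p = 3.35e-09). Sox17, a defining marker of endoderm, was at 5.51 and 5.26 against 6.27 and 6.22, under 2-fold, and Gata6 fell by 2.44. The 3 Gata6 probe sets ran from -2.44 to 1.12, and the fall is that of the brightest. The visceral endoderm genes Afp, Ttr and Apoa1 were not called and stood between 3.48 and 4.81 in the 4 arrays. The rises were in Sox7, Amn and Apoe, at 2.04, 1.72 and 1.35. Summed levels were 96.5 and 94.5 against 104.7 and 107.4.

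Of 17 trophoblast and simple epithelium genes, 5 fell and 2 rose, and the list summed to 87.9 and 87.8 in BP14A arrays and 96.9 and 99.3 in parental arrays. Krt8 and Krt18, the paired keratins of simple epithelia, were at 7.79 and 7.92 against 12.06 and 12.09 (change -4.22, SE 0.25, adjusted p = 2.23e-10) and 9.11 and 9.23 against 12.02 and 12.09 (change -2.89, adjusted p = 2.39e-08). The trophoblast markers Elf5, Gata3 and Krt7 were not called, and Elf5 and Gata3 were dim but for Elf5 in parental replicate 1. Vim (vimentin) was at 6.37 and 7.18 against 11.97 and 11.95 (change -5.19, SE 0.29, adjusted p = 9.94e-11), with EpiLCs at 10.01 ± 0.16, and Cdh2 (N-cadherin) at 4.99 and 4.56 against 9.33 and 8.87 (change -4.32, SE 0.29, adjusted p = 1.27e-09). Snai1 fell by 2.41. Cdh1 (E-cadherin) was high in both groups, at 11.74 and 11.67 against 12.37 and 12.41, and Epcam differed by 0.17. Of 16 epithelial-mesenchymal transition genes, 5 fell and 2 rose, the latter 1 without BP14A replicate 1.

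Fibroblast and blood markers, which feeder or other cells would carry, were read as well. The protocol moved the cells off feeders before induction. Col1a1 and Col3a1 were not called, with values of 2.05 to 4.53. Col1a2 was at 6.32 and 6.35 against 7.24 and 7.17, under 2-fold (change -0.87, adjusted p = 0.0174). The fibroblast list had a median difference of -0.83, against 0.05 over all tested genes, and 0 members rose. Of its 13 members 5 fell, namely Vim, Acta2, Twist1, Dcn and Thy1, where 7.25% of all tested genes fell. Fewer were called without parental replicate 2. Dcn was at 4.30 and 3.37 against 5.98 and 5.65 (change -1.98, adjusted p = 0.00538). Thy1 was at 3.98 and 4.24 against 5.22 and 5.46 (change -1.23, adjusted p = 0.00542). For Dcn and Thy1 all 4 arrays lay below EpiLCs, at 9.02 ± 0.05 and 7.85 ± 0.22. The 3 Acta2 probe sets ran from -2.58 to 1.53, and their mean was not called (adjusted p = 0.646). The embryonic globin genes Hbb-bh1, Hbb-y and Hba-x were at 1.74 to 5.30 in all 4 arrays and were not called. Of 13 blood and endothelial genes 2 rose and 1 fell, where 6.63% of all tested genes rose and 7.25% fell. Pecam1, which PGCs and ESCs also express, rose from 3.08 and 3.26 to 6.93 and 7.06 (change 3.82, SE 0.97, adjusted p = 0.00633). Tek rose and Flt1 fell. The fibroblast list summed to 65.6 and 69.1 in BP14A arrays and 81.3 and 82.5 in parental arrays, and the blood list to 68.4 and 67.6 against 62.9 in both.

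Genes that p53 activates were lower or not called. Of 13 tested, 6 fell and 0 rose. Cdkn1a (p21), the Cdk inhibitor that arrests cells in G1, was at 5.87 and 6.92 against 10.51 and 10.21 (change -3.96, SE 0.51, adjusted p = 6.5e-06), below the EpiLC level of 8.97 ± 0.68 in both BP14A arrays and above it in both parental arrays. Phlda3 and Ccng1 fell, with differences of -2.30 and -2.24, as did the apoptosis genes Bbc3 (-1.01) and Pmaip1 (-1.22). Mdm2, another target, was at 10.24 and 10.04 against 10.18 and 10.22 and was not called. None of the proliferation genes Mki67, Pcna, Top2a, Mcm2, Mcm5 and Cdk1 was called, with differences from -0.14 for Cdk1 to 0.11 for Pcna. Ccnd1 and Cdkn1c fell, with differences of -1.84 and -2.47. Of 23 cell cycle genes 3 fell and 1, Cdkn2a, rose, where 7.25% of all tested genes fell and 6.63% rose. That rise was lost without BP14A replicate 2 or parental replicate 2. It was also lost with no dim filter and in the fits on the 4 or the 22 new arrays alone.

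Metabolic genes were split. Ldha, which makes lactate from pyruvate, was at 9.37 and 10.31 against 13.05 and 13.10 (change -3.24, SE 0.33, adjusted p = 2.98e-07), with EpiLCs at 13.10 ± 0.10. Pdk1, which keeps pyruvate out of the citric acid cycle, was at 11.003 and 11.41 against 8.23 and 8.14 (change 3.02, SE 0.35, adjusted p = 1.93e-06), and the glucose transporter gene Slc2a1 at 11.22 and 10.75 against 12.50 and 12.43 (change -1.48, adjusted p = 2e-05). Of 19 glycolysis and hypoxia genes, 3 rose and 4 fell (2 without BP14A replicate 1), and Pgk1, Pkm and Aldoa were not called. With the mean of all probe sets, Pfkp (adjusted p = 0.307) and Hk1 (adjusted p = 0.283) were no longer called and 1 rise was left. The 4 Pdk1 probe sets had differences from -0.33 to 3.02, and their mean was still called. None of 22 oxidative phosphorylation genes was called by limma, and 2, Cox4i1 and Ndufs4, had an unadjusted p under 0.05. Of 14 cholesterol synthesis genes, 4 fell and 0 rose (2 falls without BP14A replicate 1 or parental replicate 1), Cyp51 by 1.48. In the list of amino acid stress and unfolded protein genes, 16 of 18 were not called, Chac1 rose by 1.46 and Atf3 fell by 3.14. The shares called in that list were near those of all tested genes, 6.63% higher and 7.25% lower.

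Imprinted genes, expressed from 1 parental allele, were lower or not called. Of 20 tested, 9 fell and 0 rose. Cdkn1c was at 6.46 and 6.38 against 8.93 and 8.86 (change -2.47, adjusted p = 1.6e-05), Plagl1 at 7.62 and 7.98 against 10.30 and 9.47 and Igf2 at 6.04 and 5.88 against 7.54 and 7.40. The paternally expressed Peg3 and the maternally expressed Igf2r were not called, with differences of -0.06 and -0.08. With the mean of all probe sets in place of the brightest, 3 members fell.

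The position of EpiLCs was read for every called gene, as a description with no test. Of the 1028 genes higher in BP14A cells, 309 (30.1%) had an EpiLC mean within 1 log2 unit of the BP14A mean only, 337 (32.8%) within 1 of the parental mean only, 219 within 1 of both and 163 of neither. Of the 1123 lower genes, 425 (37.8%) lay within 1 of BP14A cells only and 307 (27.3%) within 1 of parental cells only, with 200 near both and 191 near neither. Higher genes thus came in similar numbers from genes at the EpiLC level in BP14A cells (Dppa2, Morc1) and in parental cells (Tcl1, Prdm14). Among lower genes, those at the EpiLC level in BP14A cells only (Sp5, Foxa2) outnumbered those at it in parental cells only (Dnmt3b, with EpiLCs at 12.88 ± 0.50). The EpiLCs were of the parental clone, and 1 of their arrays had a Gapdh 5′ minus 3′ difference of -3.03.

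Cells of the same line and day with the Prdm14 transgene alone (P14 cells) stand beside BP14A cells in the series. Tested directly, 20 of 15497 genes (0.129%) differed between BP14A and P14 cells, 9 higher and 11 lower in BP14A cells, with 943 at an unadjusted p under 0.05. Of the 2151 genes called against parental cells, 2030 (94.4%) differed by less than 1 log2 unit between BP14A and P14 means, with a median absolute difference of 0.26. That share was not counted over all tested genes, so it is not shown to be particular to the called ones. The comparisons with parental and with P14 cells share the BP14A arrays, and a difference that did not pass the test is not shown to be absent. Dppa3 was at 12.57 ± 0.09 in P14 cells, Esrrb at 11.87 ± 0.04, Kit at 10.73 ± 0.05 and Hoxb1 at 3.07 ± 0.41 (SD, n = 2 each). Prdm1 and Tfap2c, which P14 cells did not carry as transgenes, were at 10.23 ± 0.09 and 11.66 ± 0.08, with BP14A minus P14 differences of -0.04 and -0.11 that did not pass (adjusted p = 1 and 1). Rhox9 and Rhox6 had lower means in P14 cells, 9.05 ± 0.24 and 8.89 ± 0.23, but the differences of 1.85 and 1.78 did not pass (adjusted p = 0.126 and 0.103).

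Of the 20 genes, Erdr1, Mid1, Pim2 and 3010001F23Rik are assigned to the X chromosome and Eif2s3y, Uty and Uba1y to the Y chromosome. Erdr1 and Mid1 were low in P14 cells, at 6.31 ± 0.16 and 4.60 ± 0.70, against 12.70 ± 0.13 and 8.91 ± 0.22 in parental cells. Eif2s3y was at 2.20 ± 0.08 in P14 cells against 7.73 and 6.68 in BP14A and 8.77 and 8.68 in parental cells, so that the low value belonged to the P14 arrays. Eif2s3y also fell against parental cells, by 1.52 (adjusted p = 0.00037), a call lost without BP14A replicate 2 and with the mean of its probe sets (adjusted p = 0.448). Uba1y was higher in BP14A than in parental cells, by 1.75 (adjusted p = 0.000834). Uty (difference 0.17, adjusted p = 0.783) and Kdm5d (-0.99, adjusted p = 0.18), both Y-linked, did not pass the test, though the Kdm5d arrays of the groups did not overlap. Xist gave a difference of 0.00 with its brightest probe set, and its 3 probe sets ran from 0.00 to 1.77. Tcl1 was higher in BP14A than in P14 cells by 1.20 (adjusted p = 0.0468). Lower in BP14A than in P14 cells were Gja1, a gap junction gene (difference -2.25), Egr1 (-1.88), Podxl (-1.44), F2r (-1.27) and Pim2 (-1.25). Against parental cells the same 5 genes had differences of -5.22, -4.05, -3.67, -3.59 and -4.52. Without BP14A replicate 1 the 9 higher genes were 5, and without BP14A replicate 2, P14 replicate 1 or P14 replicate 2 the 11 lower genes were 3, 5 and 0.

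**Figure D4:**
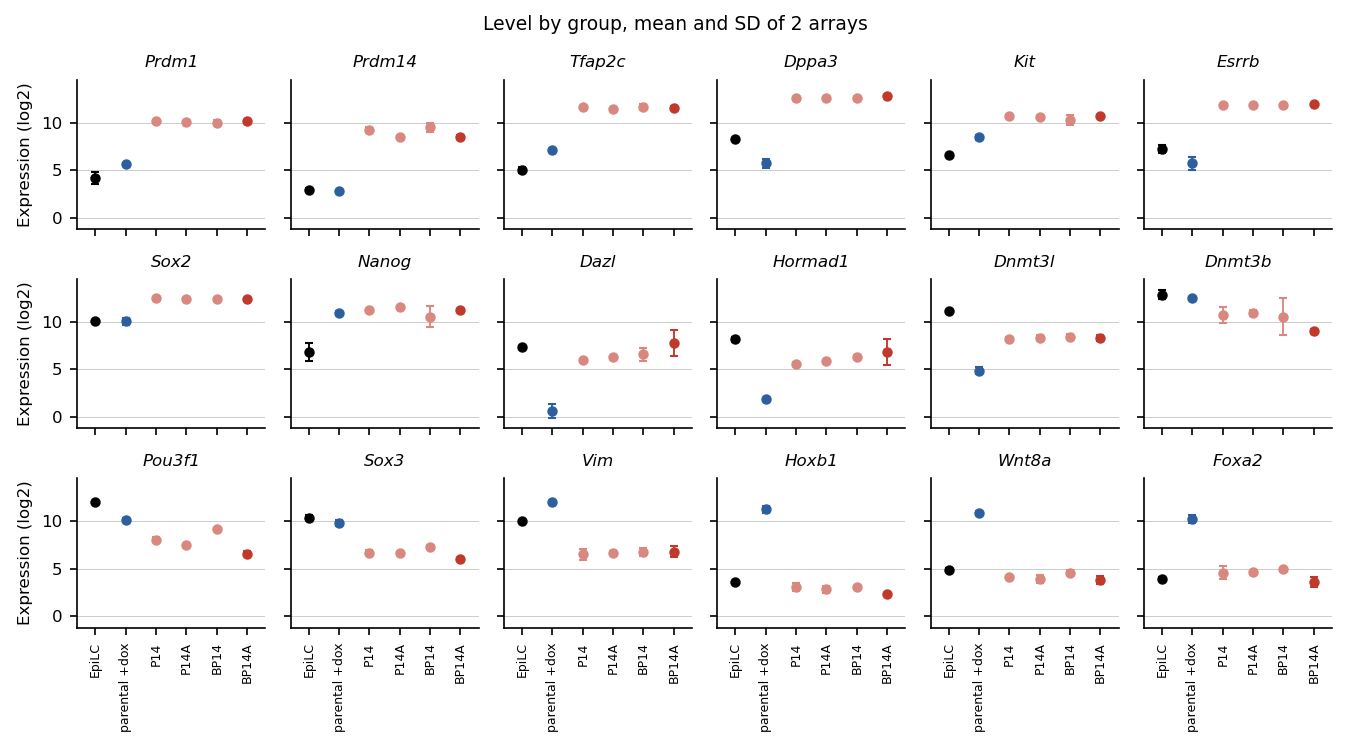
Log2 expression (mean and SD of 2 arrays) of 18 genes in EpiLCs, parental +dox cells and cells with the P14, P14A, BP14 or BP14A transgenes at day 2. In each of these genes except Nanog and, less widely, Dnmt3b and Pou3f1, the 4 groups with transgenes lie together and apart from parental +dox cells.

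Arrays that share no sample with this comparison were used to ask where the same genes stood along other germ cell routes. Between EpiLCs (48 h) and cytokine-induced PGC-like cells at day 6, on earlier arrays of another line (C57BL/6, without rtTA), 1435 genes (9.26%) rose and 1453 (9.38%) fell. Of the 1028 genes higher in BP14A cells, 425 (41.3%) were among the former, which is 29.6% of that list, and 94 (9.14%) among the latter. Of the 1123 lower genes, 451 (40.2%) fell there, 31% of that list, and 106 (9.44%) rose. Between the epiblast at E5.5 and PGCs at E9.5, 1380 genes (8.9%) rose and 1070 (6.9%) fell. There 417 of the higher genes (40.6%, and 30.2% of the risen list) rose and 93 (9.05%) fell, while 334 of the lower genes (29.7%, and 31.2% of the fallen list) fell and 131 (11.7%) rose. Shares in the same direction lay above the share among all genes in all 4 cases, and those in the opposite direction lay nearer to it. These shares are a description with no test.

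Single genes show both cases. Dppa3 rose by 5.22 in embryo PGCs (adjusted p = 1.48e-11) and by 3.80 in day 6 cytokine cells, and Rhox9 by 8.57 and 6.44. Fst fell in both, with changes of -3.14 and -3.42. Going the other way, Dnmt3l, higher in BP14A cells, fell in PGCs (change -5.85) and in day 6 cells (change -4.02). Dazl fell by 2.22 in PGCs (adjusted p = 0.00486) and did not pass the test in day 6 cells (change 1.14, adjusted p = 0.131). Hoxb1, Gbx2 and Vim, all lower in BP14A cells, were higher in PGCs by 3.65, 3.61 and 1.29.

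Cytokine-induced cells at day 2 had a different relation to these genes. Their reference was the 36 h EpiLCs, while that of BP14A cells was parental cells at day 2. The part of these unlike references was not tested. Against the 36 h EpiLCs, 1305 genes (8.42%) rose and 939 (6.06%) fell in the cytokine cells (1621 and 713 on the deposited values). Of the genes lower in BP14A than in parental cells, 443 (39.4%) rose there, 33.9% of that list, and 75 (6.68%) fell. Of those higher in BP14A cells, 296 (28.8%) fell there, 31.5% of that list, and 110 (10.7%) rose. Hoxb1 rose by 7.20 and Cdx1 by 5.37 in cytokine cells at day 2, to 10.82 ± 0.27 and 9.02 ± 0.26, and Id1 rose by 6.12 (adjusted p = 1.03e-13). Prdm14 and Tfap2c rose by 5.63 and 4.85, Dppa3 by 1.21, and Rhox9 differed by -0.03 (adjusted p = 0.977). Foxa2, at 3.93 and 3.25 in BP14A and 9.93 and 10.52 in parental cells, was at 4.42 ± 0.25 in cytokine cells, so its high level was seen in the parental arrays and not in those.

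**Figure D5:**
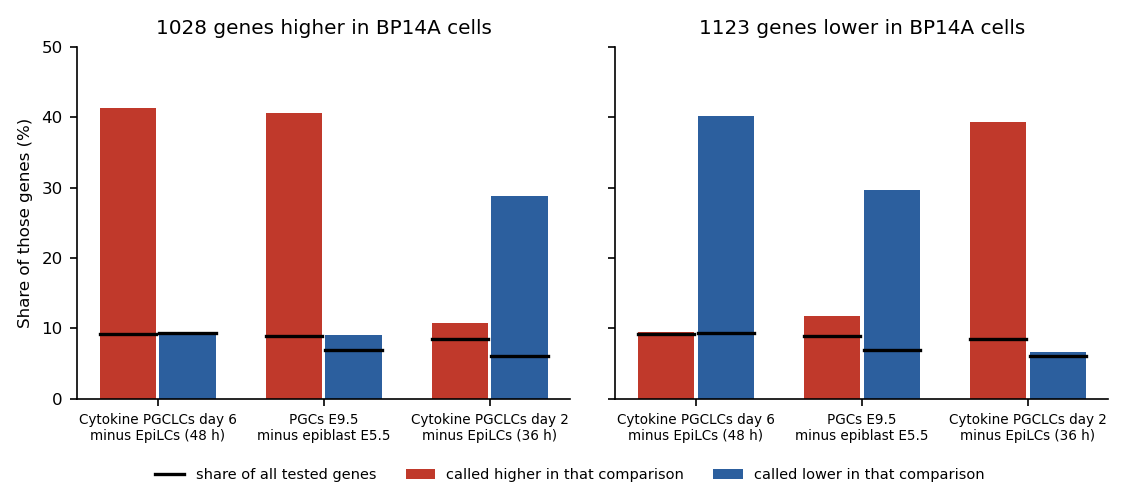
Share (vertical axis, %) of the 1028 genes higher (left) and the 1123 lower (right) in BP14A than in parental +dox cells that was called higher (red) or lower (blue) in 3 comparisons of other arrays, with the share among all tested genes as a black line. In the day 6 and embryo comparisons the bars of the same direction reach 29.7% to 41.3%, and in the day 2 cytokine comparison the bars of the opposite direction reach 28.8% and 39.4%.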

How the data were processed

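Affymetrix mouse expression arrays were hybridised with amplified cDNA, in 16 groups of 2. The authors deposited log2 expression values, 1 per probe set (0 to 14.59, a scale read from the values); the summarisation software is not given in the sources used here. Of 45101 probe sets, 34945 had 1 gene symbol, and 34741 of these matched RefSeq (GRCm38.p6). Array medians ran from 4.62 to 4.79, more than the 0.1 allowed, so values were quantile normalized. The brightest probe set stood for each of 18193 genes, of which 9183 had 1 probe set. In the others, further probe sets could differ less or in the other direction. The 15497 with a group mean at or above the 40th percentile (4.05) were tested with limma 3.58.1 (R 4.3.3), as 16 group means with 16 residual degrees of freedom and Benjamini-Hochberg adjustment. The number of arrays limits the precision. The test was checked on simulated data.

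The comparison, the 30 gene lists (476 genes, 432 tested) and the genes named were chosen with earlier results of these data known. By rule, the text takes its genes from the 12 largest rises and falls (clone-number symbols and overlapping arrays left out), up to 3 called members of each list in each direction, the factor genes and other germ cell, pluripotency and methylation genes, and a sex-chromosome check. Other list members, and the genes of the closing section, were chosen after their values were seen. Nanos3 and T were not analysed here. Promoters come from RefSeq.

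Alternatives changed the normalization, dim filter, probe set rule, moderation, thresholds, arrays fitted and replicates left out.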

Additional observations from a re-analysis of the deposited data

How the results depend on the processing

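Without the fold limit, 1892 genes were higher and 1687 lower in BP14A than in parental +dox cells. Leaving out 1 array at a time gave 900 to 1034 higher and 910 to 1106 lower genes, and 1406 of the 2151 calls were kept in all 4 cases. Over the other settings the counts ran from 823 (mean of all probe sets) to 1082 higher and from 932 (adjusted p under 0.01) to 1233 (deposited values) lower, within 1.5 times of the reported ones. No named gene reversed its sign, and 82 of the 112 named genes that were called kept their call in all 15 alternatives. Against P14 cells, leaving out 1 array gave 5 to 10 higher and 0 to 10 lower genes. In the other comparisons it gave 1100 to 1313 and 806 to 933 (day 2 cytokine cells), 1253 to 1513 and 1278 to 1643 (day 6) and 1260 to 1411 and 927 to 1255 (PGCs). Deviations of same-numbered BP14A and parental arrays correlated at 0.0489. Among the 11 groups that are not on earlier arrays, such correlations ran from -0.2189 to 0.4756. Whether arrays with the same replicate number share a batch was not tested. With the replicate block, 1082 genes were higher and 1192 lower. Signal limits dim genes, whose folds have a floor.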

Other observations

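Several large differences lay in genes that no list held. Lgals9, a galectin, was at 8.76 and 8.67 in BP14A arrays and 3.26 and 3.38 in parental arrays (change 5.398, SE 0.30, limma adjusted p = 1e-10). Mep1b, a meprin protease subunit, rose by 5.27, Gtsf1l, a relative of the germ cell factor Gtsf1, by 4.90, and Epas1 (HIF-2α) by 4.50. Among the falls, Acta1, the skeletal muscle actin, had a change of -6.24, Nt5e (CD73) of -6.10, Wls, which carries WNT ligands to the cell surface, of -5.45, the matrix protease gene Mmp2 of -5.27, and the hyaluronan receptor gene Cd44 of -5.11. For Wls the EpiLC mean of 5.80 lay nearer to the BP14A arrays (4.91 and 4.80) than to the parental arrays (10.45 and 10.16), and for Mmp2 the EpiLC mean of 8.38 lay nearer to the parental arrays (9.52 and 9.59).

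On the X chromosome, of which male cells have 1 copy, 45 of 514 tested genes (8.75%) were higher and 60 (11.7%) lower in BP14A cells. Among all tested genes the shares were 6.63% and 7.25%. On chromosome 19 they were 8.8% and 6.55% and on chromosome 18 5.66% and 9%, so the share of rises was not particular to the X chromosome. The rises were led by Rhox9, Mageb16 and Rhox6. Nexmif rose by 3.45 and Klhl13 by 2.77, while Porcn, an enzyme that WNT ligands need for secretion, rose by 1.77, from 8.66 and 8.68 to 10.10 and 10.79. Among the falls were Rtl8c (-6.45), Dgkk (-5.88), the sulfotransferase genes Chst7 (-5.50) and Hs6st2 (-4.55), Apln (-5.38), the gene of the ligand apelin, and the kinase gene Pim2 (-4.52). These counts are a description with no test.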
